A study of Mus musculus with 20 samples.

Results

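The comparison described here set microglial transcripts of α-synuclein transgenic mice against those of wild-type mice at 7 months of age. Its members are the 10 mice of that age, of 20 mice sequenced in all, and the 13887 of 24062 listed genes whose value reached 10 in at least 4 of the 10 mice. The 6 transgenic mice (mThy1-Asyn, here called α-synuclein mice) carried wild-type human α-synuclein driven by the murine Thy-1 promoter, which is active mainly in neurons, with the transgene on the X chromosome. The 4 wild-type mice shared their B6D2F1/J background, and all 10 were males that received no treatment. Each sample was the whole brain of 1 mouse, from which microglia were taken with magnetic beads (IBA1 beads in the sample labels, CD11b microbeads in the study's methods), and mice were not pooled. Reads counted on genes ranged from 43825004 to 77806399 per mouse. A further 5 α-synuclein and 5 wild-type mice, aged 10 months and normalized separately, serve as a second measurement in other animals.

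Microglia are the resident macrophages of the brain. They take up debris and protein aggregates, degrade them in lysosomes, sense nucleotides released by other cells through purinergic receptors, and fold the receptors and secreted proteins they need in the endoplasmic reticulum (ER). The cells answer misfolded protein in the ER by raising chaperones of the ER lumen. A preparation from whole brain can also hold RNA of neurons, glia, vessels and blood cells, and a bulk measurement cannot tell fewer cells of a type from less RNA per cell. All values below are normalized counts, that is reads per gene divided by a size factor for the mouse. Differences are log2 fold changes of α-synuclein over wild-type mice on the log2(value + 1) scale, given with the standard error (SE) of limma's fit, and a gene is called when its Benjamini-Hochberg adjusted p is under 0.05.

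Of the 13887 genes, 684 were called (4.93%), 309 of them higher (2.23%) and 375 lower (2.70%) in α-synuclein mice. The values of the 6 and the 4 mice did not overlap in 1045 genes (7.53%). The number of higher genes fell to 120 without wild-type replicate 1, to 153 without wild-type replicate 3, to 189 without wild-type replicate 2 or α-synuclein replicate 2 and to 205 without α-synuclein replicate 3, and that of lower genes to 162 and 218 without wild-type replicates 1 and 3. Of the called genes, 118 belonged to one of the 55 gene lists used here and 566 to none. The largest increases outside the lists included 4930447K03Rik (log2 fold change 5.57, SE 0.77, adjusted p = 0.00248), Aim1l (3.67, SE 0.54, adjusted p = 0.00183), Rhbdl3 (3.03, SE 0.64, adjusted p = 0.0133), a member of the rhomboid protease family, and Abhd14b (2.24, SE 0.23, adjusted p = 0.000203). The largest decreases were those of Ccr6, a chemokine receptor gene (-6.56, SE 0.20, adjusted p = 6.91e-11), and Gnb4, a G protein subunit gene (-4.58, SE 0.57, adjusted p = 0.00248). Other large decreases included Rnf165 (-3.28, SE 0.56, adjusted p = 0.0037), the neuronal transcription factor gene Scrt1 (-2.94, SE 0.42, adjusted p = 0.00183) and St18 (-2.88, SE 0.47, adjusted p = 0.00312). These 9 genes were still called when any 1 mouse was left out. Pdzrn4 rose from 0, 19, 33 and 6 in the wild-type mice to between 118 and 187 (log2 fold change 4.12, SE 0.80, adjusted p = 0.015), a call lost without wild-type replicate 4 (adjusted p = 0.0524).

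The labels were checked against Thy1, whose promoter drives the transgene. It had 794, 909, 1298, 392, 846 and 1276 normalized counts in the α-synuclein mice and 48, 45, 18 and 47 in the wild-type mice. Every α-synuclein mouse lay above every wild-type mouse (log2 fold change 4.51, SE 0.36, adjusted p = 0.000203), and reads from transgene sequence cannot be told apart from those of the endogenous gene. As a check of sex, the raw reads of Xist did not exceed 15 in any of the 10 mice, and those of the Y-linked Ddx3y were never below 3052.

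**Figure D1:**
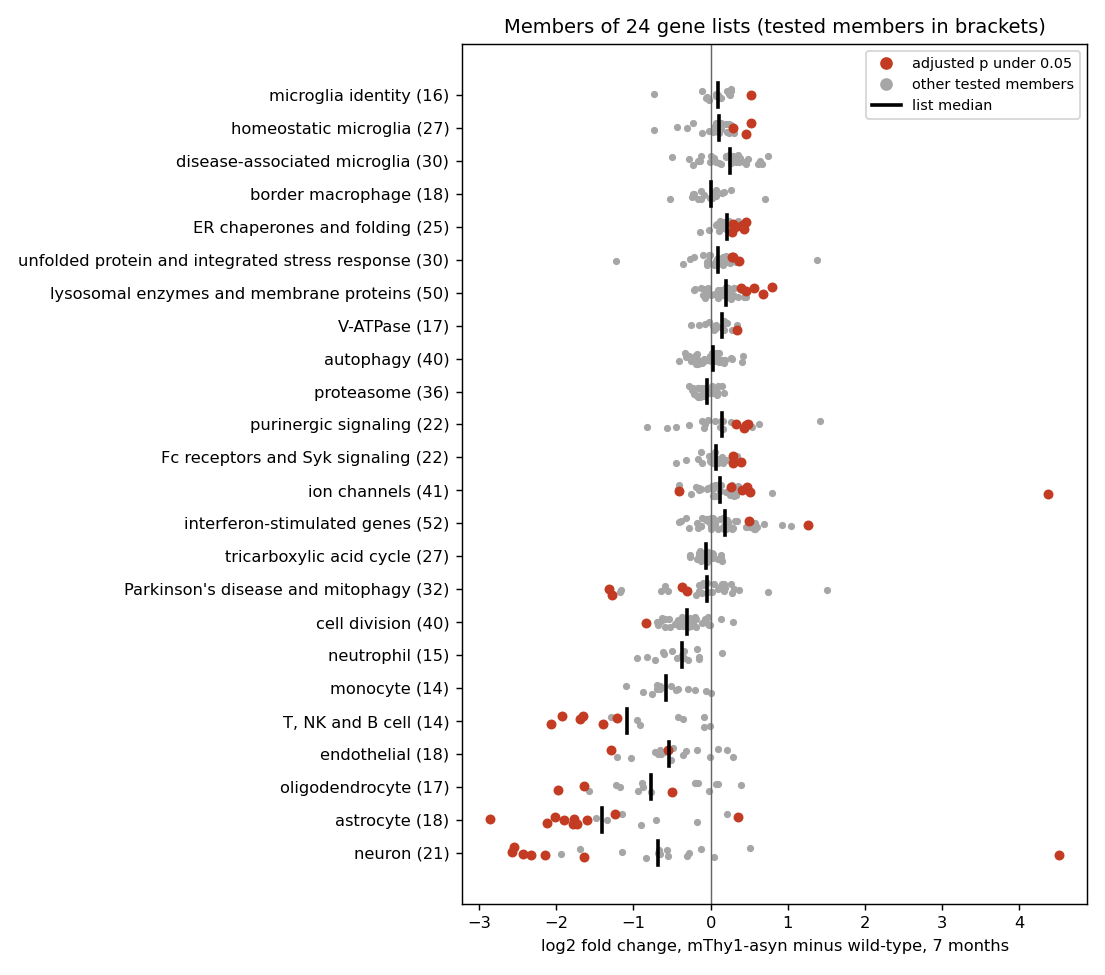
Log2 fold change at 7 months (horizontal axis) of every tested member of 24 gene lists (rows), with called members in red, other members in grey and the median of each list as a black bar. Called members of the ER chaperone, lysosomal and purinergic lists lie right of 0, and most called members of the neuron, astrocyte and T, NK and B cell lists lie left of 0, with Thy1 at 4.51 as the exception among the neuron markers.

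The 55 lists included none for Toll-like receptor, NF-κB, NOD, TREM1 or ribosomal protein genes, so the ranking that follows does not cover these. Among those of the 55 lists that do not mark another cell type, ER chaperones and folding enzymes had the largest share of called members. Of 25 tested members 8 rose (32%) and none fell, beside 4.93% called over all genes. A fold change above 0 was found in 23, and the median was 0.21, beside a median of 0.00 over all genes. Hspa5, which encodes the main chaperone of the ER lumen (BiP), had 52652, 54944, 65871, 48344, 51984 and 48269 normalized counts in the α-synuclein mice and 39736, 41088, 38966 and 42072 in the wild-type mice. The lowest α-synuclein mouse was thus above the highest wild-type mouse (log2 fold change 0.40, SE 0.08, adjusted p = 0.0128). Creld2, an ER stress-inducible disulfide isomerase, ranged from 1668 to 1957 against 1219 to 1352 (0.46, SE 0.08, adjusted p = 0.00372). Pdia4, which forms disulfide bonds in folding proteins, ranged from 8673 to 10957 against 6463 to 7694 (0.42, SE 0.08, adjusted p = 0.0048). Its relative Pdia5 rose by 0.43 (SE 0.10, adjusted p = 0.022). The other called members, named after their values were seen, were Pdia6 (0.29, SE 0.07, adjusted p = 0.0337), the HSP90 of the ER Hsp90b1 (0.30, SE 0.08, adjusted p = 0.0337), Erp44 (0.31, SE 0.08, adjusted p = 0.0417) and Hyou1 (0.28, SE 0.07, adjusted p = 0.0427). Creld2 and Pdia4 were called whichever mouse was left out. The calls of Hspa5 and Pdia5 were lost in 1 and 3 of the 10 leave-one-out fits (largest adjusted p = 0.055 and 0.0879, both without wild-type replicate 1). Pdia6, Hsp90b1, Erp44 and Hyou1 lost theirs in 7, 7, 9 and 6 of them, with adjusted p of up to 0.129, 0.101, 0.103 and 0.147.

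In the list of the unfolded protein and integrated stress response, 3 of 30 members were called (10%, beside 4.93% over all genes). All 3 were higher, and the list median was 0.10. They were Derl2 (0.37, SE 0.08, adjusted p = 0.0189), Sel1l (0.28, SE 0.08, adjusted p = 0.0488) and Herpud1 (0.30, SE 0.08, adjusted p = 0.0421), which act in the export of misfolded protein from the ER for degradation. The call of Derl2 was lost in 2 of the leave-one-out fits, that of Sel1l in 8 and that of Herpud1 in 9 (largest adjusted p = 0.0753, 0.166 and 0.108, each without wild-type replicate 1). P4ha1, a subunit of the prolyl hydroxylase that modifies procollagen in the ER, ranged from 17592 to 21752 against 13514 to 15034 (0.46, SE 0.07, adjusted p = 0.00248). In the proteasome list, limma called none of 36 members, 7 had an unadjusted p under 0.05, and neither DESeq2 nor edgeR called any. In the autophagy list it called none of 40, with 10 at an unadjusted p under 0.05, 1 lower gene in DESeq2 and none in edgeR.

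A promoter feature of some ER chaperone genes was looked for after the calls were known. The ER stress element, the letters CCAAT and CCACG separated by 9 bases, on either strand, occurred in the RefSeq promoter (250 bases before to 50 after the start, GRCm38.p6) of 19 of 10409 tested genes with a promoter (0.183%). It occurred in 7 of 20 ER chaperone genes (35%), among them the called genes Hspa5, Hsp90b1, Pdia6 and Creld2, in 4 of 231 called higher genes (1.73%), the same 4, and in 0 of 272 called lower genes. The 250 bases before the start of these 4 genes are shown 5′ to 3′ along the gene, with the paired letters of each match in capitals, because they are the called genes whose promoters hold it. Hspa5 lies at chr2:34771840-34772089 (plus strand), Creld2 at chr15:88819396-88819645 (plus strand), Pdia6 at chr12:17266339-17266588 (plus strand) and Hsp90b1, with 2 matches, at chr10:86705445-86705694 (minus strand).
Hspa5: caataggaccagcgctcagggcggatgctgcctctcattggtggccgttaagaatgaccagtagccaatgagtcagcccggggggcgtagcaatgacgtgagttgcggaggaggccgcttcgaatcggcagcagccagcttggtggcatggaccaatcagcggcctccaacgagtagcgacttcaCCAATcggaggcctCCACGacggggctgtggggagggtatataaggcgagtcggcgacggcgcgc
Creld2: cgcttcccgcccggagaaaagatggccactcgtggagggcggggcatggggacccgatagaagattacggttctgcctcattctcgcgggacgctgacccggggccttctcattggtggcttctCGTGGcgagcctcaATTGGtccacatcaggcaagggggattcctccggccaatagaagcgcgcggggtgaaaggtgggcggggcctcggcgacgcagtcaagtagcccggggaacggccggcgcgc
Pdia6: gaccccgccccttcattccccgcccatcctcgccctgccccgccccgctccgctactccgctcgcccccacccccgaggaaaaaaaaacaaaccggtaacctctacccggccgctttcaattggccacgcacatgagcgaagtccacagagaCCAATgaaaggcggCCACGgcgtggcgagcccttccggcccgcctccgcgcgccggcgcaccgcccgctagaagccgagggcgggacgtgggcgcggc
Hsp90b1: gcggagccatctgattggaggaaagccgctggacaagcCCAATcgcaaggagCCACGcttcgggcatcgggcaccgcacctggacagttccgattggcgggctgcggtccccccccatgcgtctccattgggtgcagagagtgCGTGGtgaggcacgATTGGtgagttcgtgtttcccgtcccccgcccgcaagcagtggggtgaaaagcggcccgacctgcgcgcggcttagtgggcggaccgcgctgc
In Hspa5 the match began 65 bases before the start, in Creld2 126 bases, in Pdia6 98 bases and in Hsp90b1 212 and 107 bases before it. Calr, Canx and Dnajc3, the other ER chaperone genes with a match, were not called. A match is a run of letters and says nothing of binding in these cells. Of the other motifs searched, each on both strands, TCACGTGA (the CLEAR core of lysosomal genes) occurred in 2.12% of all promoters, in 2.6% of called higher, 1.84% of called lower and 9.52% of lysosomal genes. GAAANNGAA (the interferon element core) occurred in 9% of all, 9.52% of called higher, 8.46% of called lower and 67.6% of interferon-stimulated genes. TGACGTCA (CRE) occurred in 3.46% of all, 1.73% of called higher and 6.25% of called lower genes.

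Of lysosomal enzymes and membrane proteins, 5 of 50 were called (10%, beside 4.93% over all genes), all higher. A fold change above 0 was found in 42, and the median was 0.20. Ctsc, a protease that activates granule enzymes, had 42153, 43015, 50186, 36456, 42608 and 43965 normalized counts in the α-synuclein mice and 30658, 28886, 27095 and 29875 in the wild-type mice, without overlap (log2 fold change 0.56, SE 0.08, adjusted p = 0.00183). Glb1, the lysosomal β-galactosidase, ranged from 4816 to 6561 against 3152 to 3653 (0.68, SE 0.09, adjusted p = 0.00183). Asah1, acid ceramidase, ranged from 40640 to 53574 against 33983 to 36085 (0.39, SE 0.08, adjusted p = 0.0123). Idua, which degrades glycosaminoglycans, ranged from 1872 to 3418 against 1278 to 1601 (0.79, SE 0.16, adjusted p = 0.0129), a call lost without wild-type replicate 1 (adjusted p = 0.0523). Ctsd, which encodes cathepsin D, ranged from 420453 to 587849 against 380430 to 472826 and was not called (0.19, SE 0.10, adjusted p = 0.291). The mean level of the list varied between mice of 1 genotype as well: it lay 0.41 log2 units above the wild-type mean in α-synuclein replicate 3, at -0.01 in replicate 4 and at 0.16 in wild-type replicate 3, so the groups overlapped. For the ER chaperones the 6 α-synuclein mice lay between 0.08 and 0.39 and the wild-type mice between -0.04 and 0.06, without overlap.

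Purinergic signaling genes included 4 called members of 22 (18.2%, beside 4.93% over all genes), all higher. Entpd1 (CD39), the surface enzyme that breaks down ATP and ADP, had 61860, 47061, 48870, 47934, 53711 and 50316 normalized counts against 38142, 37390, 37473 and 36145 (log2 fold change 0.46, SE 0.08, adjusted p = 0.00371). The adenosine receptor gene Adora3 ranged from 5372 to 7293 against 4377 to 4843 (0.48, SE 0.09, adjusted p = 0.00475). The nucleoside transporter gene Slc29a3 rose by 0.33 (SE 0.07, adjusted p = 0.0151) and the ATP-gated channel gene P2rx4 by 0.43 (SE 0.11, adjusted p = 0.0332). Both were called in fewer than all leave-one-out fits, Slc29a3 losing its call in 1 (0.0755) and P2rx4 in 7 (up to 0.12), each with the largest adjusted p without wild-type replicate 1.

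Among ion channels, 5 of 41 were called higher and 1 lower (14.6% called, beside 4.93% over all genes). The potassium channel genes Kcnk6 and Kcnj2 ranged from 13623 to 18308 against 11447 to 12366 (log2 fold change 0.47, SE 0.08, adjusted p = 0.00457) and from 4742 to 6639 against 3634 to 4150 (0.51, SE 0.09, adjusted p = 0.00489). The magnesium channel gene Trpm6 was scarce, with 9 to 102 normalized counts in the α-synuclein mice and 0, 0, 0 and 12 in the wild-type mice (adjusted p = 0.00585), so its groups overlapped. Ano6, a lipid scramblase and channel, fell by 0.41 (SE 0.09, adjusted p = 0.0198), a call lost without wild-type replicate 4 (adjusted p = 0.0542), in which it was highest.

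Microglia marker genes were abundant in every mouse and differed little between genotypes. The 16 identity markers summed to between 2597490 and 3015990 normalized counts in the α-synuclein mice and between 2529140 and 2860460 in the wild-type mice. Of these markers 1 was called (6.25%, beside 4.93% over all genes). That gene, Gpr34, a lysophosphatidylserine receptor, had 97352, 111492, 124362, 90285, 113926 and 102926 against 77452, 76031, 68908 and 72734, without overlap (log2 fold change 0.53, SE 0.09, adjusted p = 0.00334). Of 27 homeostatic genes 3 were called, all higher (11.1%, beside 4.93% over all genes). They were Gpr34, Entpd1 (adjusted p = 0.00371) and the TGF-β pathway inhibitor gene Smad7 (0.29, SE 0.08, adjusted p = 0.0448). Smad7 lost its call in 9 of the 10 leave-one-out fits (adjusted p of up to 0.107). Of 30 genes of disease-associated microglia limma called none, with 7 at an unadjusted p under 0.05, 3 higher and 1 lower in DESeq2 and 1 higher in edgeR, although 23 had a fold change above 0 (median 0.25). Of 18 markers of border macrophages it called none (median 0.00, 3 at an unadjusted p under 0.05, 1 higher in DESeq2 and none in edgeR).

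Receptors and signaling genes of myeloid cells included calls in both directions. The chemerin-binding receptor gene Ccrl2 fell, from 2021, 2406, 2262 and 2057 in the wild-type mice to between 854 and 1481 (log2 fold change -1.10, SE 0.13, adjusted p = 0.000945). Tnfrsf11a, the receptor for the osteoclast factor RANKL, rose by 0.47 (SE 0.08, adjusted p = 0.00475), and H2-Ob, a modulator of class II antigen loading, by 0.72 (SE 0.14, adjusted p = 0.00844). The complement receptor gene C3ar1 ranged from 16473 to 30987 against 12884 to 13519 (0.68, SE 0.14, adjusted p = 0.0143). C3ar1 lost its call in 2 leave-one-out fits (adjusted p of up to 0.0559, without wild-type replicate 3), and the other 3 genes kept theirs in each of them. Of 22 genes of Fc receptors and their kinases 3 were called, all higher (13.6%, beside 4.93% over all genes). They were Lyn (0.29, SE 0.06, adjusted p = 0.0158), Blnk (0.39, SE 0.09, adjusted p = 0.0256) and Fcgr1 (0.29, SE 0.07, adjusted p = 0.0301). Their calls were lost in 1, 4 and 8 leave-one-out fits (adjusted p of up to 0.0558, 0.114 and 0.0999). In phagocytosis of dying cells, the receptor gene Mertk rose (0.35, SE 0.08, adjusted p = 0.022) and so did the bridging protein gene Pros1 (0.25, SE 0.06, adjusted p = 0.0343), while the other bridging protein gene, Gas6, fell from between 10473 and 13032 to between 6834 and 10067 (-0.47, SE 0.10, adjusted p = 0.0162). Leaving out 1 mouse ended these calls in 2, 8 and 1 fits (adjusted p of up to 0.101, 0.1 and 0.0659).

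Of 27 tested phosphatases and feedback genes of the ERK kinase pathway, 2 rose and 1 fell (11.1% called, beside 4.93% over all genes). Dusp7, an ERK phosphatase, had 9419, 5406, 7449, 6616, 5713 and 6126 normalized counts against 2716, 2456, 2785 and 2284 (log2 fold change 1.39, SE 0.13, adjusted p = 0.000313). Dusp6, its relative, ranged from 13127 to 17222 against 6610 to 11148 (0.78, SE 0.14, adjusted p = 0.00589). Spry2, another inhibitor of the pathway, was scarce and fell (-1.31, SE 0.31, adjusted p = 0.0254), a call lost in 5 leave-one-out fits (up to 0.107, without wild-type replicate 1). The growth regulator gene Myc ranged from 950 to 1227 against 456 to 746 (0.89, SE 0.12, adjusted p = 0.00183). It was the only call among 27 immediate-early genes (3.7%, beside 4.93% over all genes).

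Among antioxidant genes 1 of 41 rose and 1 fell, a called share of 4.88%, no larger than the 4.93% over all genes. Sod1, cytosolic superoxide dismutase, had 3453, 4430, 4105, 4394, 5032 and 3612 normalized counts against 5552, 6742, 7190 and 6996 (log2 fold change -0.67, SE 0.11, adjusted p = 0.00258). Nnt, the mitochondrial enzyme that supplies NADPH, ranged from 5126 to 6014 against 3413 to 4264 (0.55, SE 0.07, adjusted p = 0.00183). Soat1, which esterifies cholesterol for storage, rose by 0.50 (SE 0.09, adjusted p = 0.00679), and the ferroxidase gene Cp by 0.76 (SE 0.15, adjusted p = 0.0149), the latter call lost in 2 leave-one-out fits (up to 0.0589). In the tricarboxylic acid cycle limma called none of 27 genes, with 2 at an unadjusted p under 0.05, 1 lower in DESeq2 and none in edgeR. Glycolysis had 2 called members of 29 (6.9%, beside 4.93% over all genes). They were Aldoc (-1.24, SE 0.21, adjusted p = 0.00347), the isozyme that marks astrocytes, and the muscle-type Pfkm (-0.40, SE 0.09, adjusted p = 0.0173), whose call was lost in 2 leave-one-out fits (up to 0.0761). Of matrix genes, Col27a1 rose from between 6762 and 7784 to between 8867 and 13473 (0.59, SE 0.10, adjusted p = 0.0037).

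In the list of genes linked to Parkinson's disease and mitophagy, 4 of 32 were called (12.5%, beside 4.93% over all genes). All 4 were lower, and the list median was -0.05. Park2 (parkin), a ubiquitin ligase, had 207, 168, 178, 161, 126 and 166 normalized counts against 440, 435, 296 and 526 (log2 fold change -1.32, SE 0.18, adjusted p = 0.00183). Pink1, the kinase that activates parkin, ranged from 2960 to 3601 against 3847 to 4537 (-0.36, SE 0.08, adjusted p = 0.0137). Park7 (DJ-1) fell by 0.30 (SE 0.08, adjusted p = 0.0326) and Mapt (tau), mainly a neuronal gene, by 1.27 (SE 0.28, adjusted p = 0.0177). The calls of Pink1, Park7 and Mapt were lost in 1, 5 and 1 leave-one-out fits (adjusted p of up to 0.0525, 0.108 and 0.0768). Neuron markers were lower in the same mice, and their part in these values was not tested.

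Markers of other brain cells were counted by type. The called share was 33.3% of neuron, 55.6% of astrocyte, 17.6% of oligodendrocyte and 11.1% of endothelial markers, beside 4.93% over all genes. Of 21 neuron markers 6 fell and 1, Thy1, rose (median -0.68), and the summed markers ranged from 5157 to 6330 normalized counts against 7445 to 10279. Nefm, a neurofilament gene, had 46, 57, 29, 78, 42 and 28 against 289, 292, 195 and 199 (log2 fold change -2.43, SE 0.30, adjusted p = 0.000945). The synaptic vesicle gene Syt1 ranged from 15 to 65 against 143 to 253 (-2.55, SE 0.43, adjusted p = 0.00372). Of 18 astrocyte markers 9 fell and 1 rose (median -1.41), with sums of 11704 to 14740 against 17577 to 23607. Sparcl1, a secreted protein gene of astrocytes, ranged from 483 to 1176 against 2225 to 3365 (-1.90, SE 0.22, adjusted p = 0.00183). Of 17 oligodendrocyte markers 3 fell (median -0.77). Summed oligodendrocyte markers overlapped between the genotypes, at 93328 to 127198 against 110915 to 133136. Their mean log2 level relative to the wild-type mean did not overlap, at -1.27 to -0.35 against -0.29 to 0.54. Of 18 endothelial markers 2 fell, Cldn5 (-1.29, SE 0.27, adjusted p = 0.0125) and Pecam1 (-0.55, SE 0.13, adjusted p = 0.0238), losing their calls in 1 and 4 leave-one-out fits (up to 0.0546 and 0.0778). Summed endothelial markers overlapped, at 27152 to 34978 against 28183 to 32883. Of 6 markers of oligodendrocyte precursors and 7 of ependyma and choroid plexus limma called none, as did DESeq2 and edgeR, with 1 in each at an unadjusted p under 0.05, and their sums overlapped too. In wild-type replicate 1 the mean level of neuron, astrocyte and oligodendrocyte markers was 0.46, 0.37 and 0.54 log2 units above the wild-type mean, the highest of the 4.

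Of 14 tested markers of T, NK and B cells 6 fell (42.9%, beside 4.93% over all genes). All 14 had a fold change under 0 (median -1.09), and their sums ranged from 1320 to 1979 normalized counts against 2791 to 4054. Their mean log2 level relative to the wild-type mean overlapped between the genotypes, at -1.43 to -0.38 against -0.61 to 0.48. The perforin gene Prf1 had 52, 41, 24, 70, 35 and 91 against 198, 212, 151 and 262 (log2 fold change -2.07, SE 0.33, adjusted p = 0.00293). The granzyme gene Gzma had 394, 340, 146, 401, 308 and 577 against 1423, 1357, 814 and 1674 (-1.93, SE 0.35, adjusted p = 0.0151). The NK receptor genes Klrb1c and Ncr1 fell by 1.22 (SE 0.24, adjusted p = 0.00829) and 1.40 (SE 0.33, adjusted p = 0.0228). Without wild-type replicate 1 the adjusted p of Gzma, Klrb1c and Ncr1 was 0.0564, 0.0506 and 0.097, and Ncr1 lost its call in 2 further leave-one-out fits. No tested marker of neutrophils or monocytes, 15 and 14 in number, was called by limma, DESeq2 or edgeR or had an unadjusted p under 0.05. A fold change under 0 was found in 14 of the 15 and in all 14 (medians -0.38 and -0.58). At 10 months, in other mice, 5 of the 15 and 8 of the 14 were called, all lower, beside 7.67% over all genes. Their medians there were -1.13 and -0.98.

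**Figure D2:**
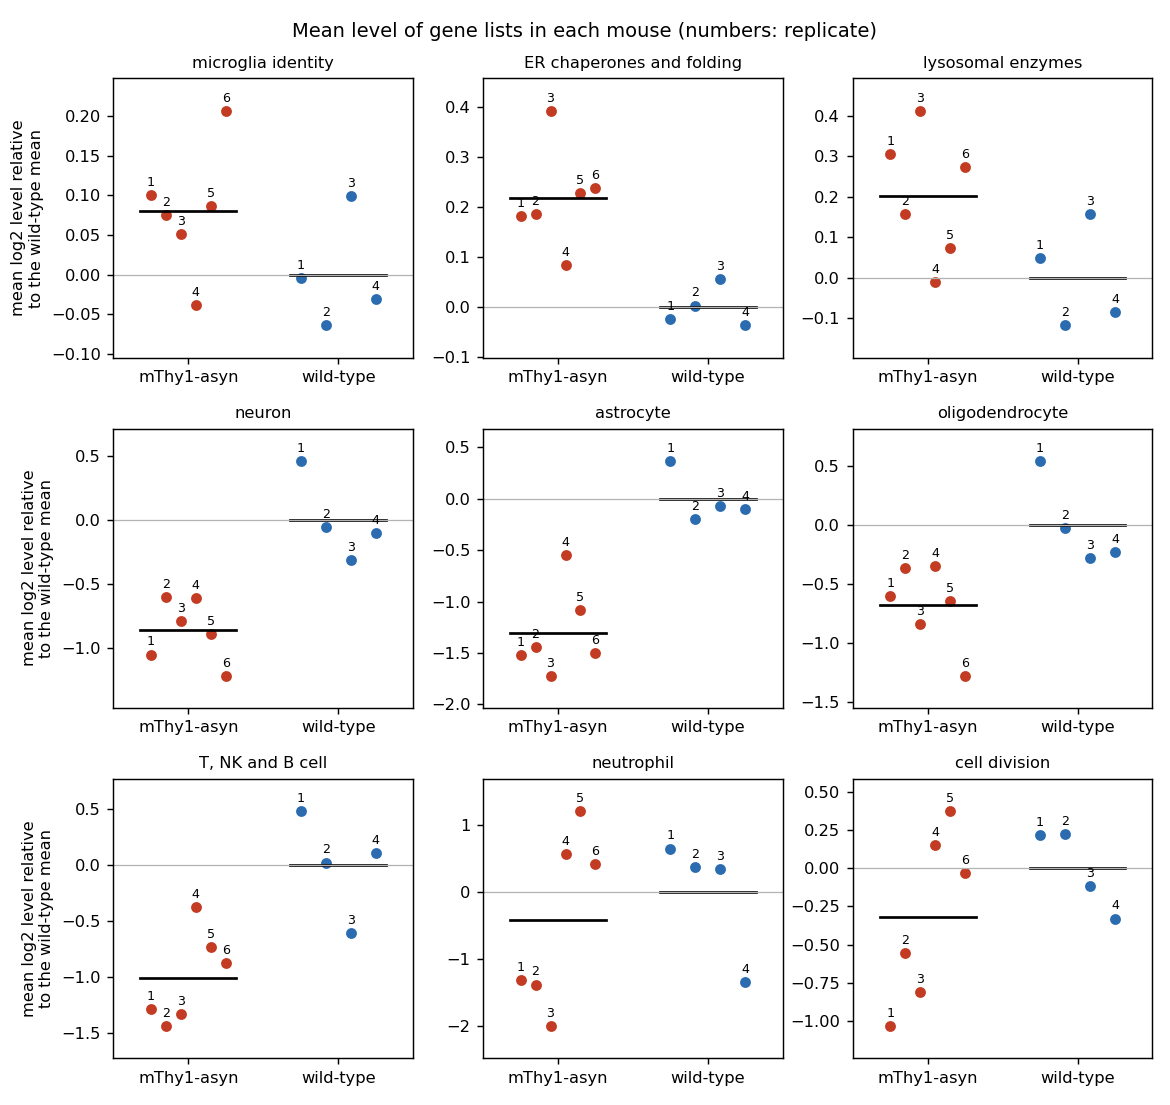
Mean log2 level of the tested members of 9 gene lists in each 7-month mouse (points, numbered by replicate), relative to the wild-type mean of each gene, with the mean of each genotype as a black bar. The ER chaperone, neuron, astrocyte and oligodendrocyte lists separate the genotypes, while the neutrophil list is low in α-synuclein replicates 1, 2 and 3 and in wild-type replicate 4 and high in the other mice.

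The spread between mice of 1 genotype was small for most genes. The median SD of log2 values was 0.19 in the α-synuclein mice and 0.19 in the wild-type mice. Of 10894 genes with a mean of at least 100 normalized counts, 6982 (64.1%) had a pooled SD under 0.2, and 105 had one above 1, of which 2 were called. Proteasome genes were the steadiest of the lists, with a median pooled SD of 0.11, beside 1.16 for the neutrophil list. The number of those 10894 genes in which a mouse lay at least 1 log2 unit beyond the nearest mouse of its genotype was 3 in α-synuclein replicate 2 and between 11 and 33 in 8 other mice. In wild-type replicate 4 it was 98, in 90 of which that mouse was the lowest of its genotype. Genes in which several mice of a genotype share a similar low or high level do not enter this number. The mice can therefore not be ranked by it where such a level is shared.

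Many of the most variable genes were those of neutrophils and their precursors. Mpo, the myeloperoxidase of their granules, had 212, 310, 135, 4647, 9430 and 3320 normalized counts in the α-synuclein mice and 3763, 1544, 1588 and 196 in the wild-type mice. Elane, neutrophil elastase, had 43, 53, 22, 845, 2080 and 767 against 868, 283, 327 and 34. In both genes α-synuclein replicates 1, 2 and 3 and wild-type replicate 4 were low and the other 6 mice high, so the pattern crossed the genotypes. The calcium-binding S100a8 of mature neutrophils followed the same order, with 11350 to 19190 in the 3 low α-synuclein mice and 19253 in wild-type replicate 4, against 59806 to 105141 in the other mice. Chil3, a marker of monocytes and neutrophils, had 2107 to 3880 and 3479 in the same 4 mice and 11067 to 21865 in the others. By a rule added after the values were seen, 69 of the 10894 genes split the 10 mice into a low and a high set that differ by a gap of at least 1 log2 unit, wider than the range within either set, with at least 2 mice in each and the sets other than the genotypes. Of these 69, 28 had exactly these 4 mice as the low set, and they lay on many chromosomes (Fam101b had no position here). In the cell division list 38 of 40 genes had a fold change under 0 (median -0.31). Of the 40, 1 was called (2.5%, beside 4.93% over all genes), Stmn1 (-0.83, SE 0.21, adjusted p = 0.0479, lost in 8 leave-one-out fits). The mean level of the list was -1.03, -0.55, -0.81, 0.15, 0.37 and -0.03 in the α-synuclein mice against 0.22, 0.22, -0.11 and -0.33. The low α-synuclein mice of this list were the same 3, and the part of the neutrophil precursors in it was not tested.

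**Figure D3:**
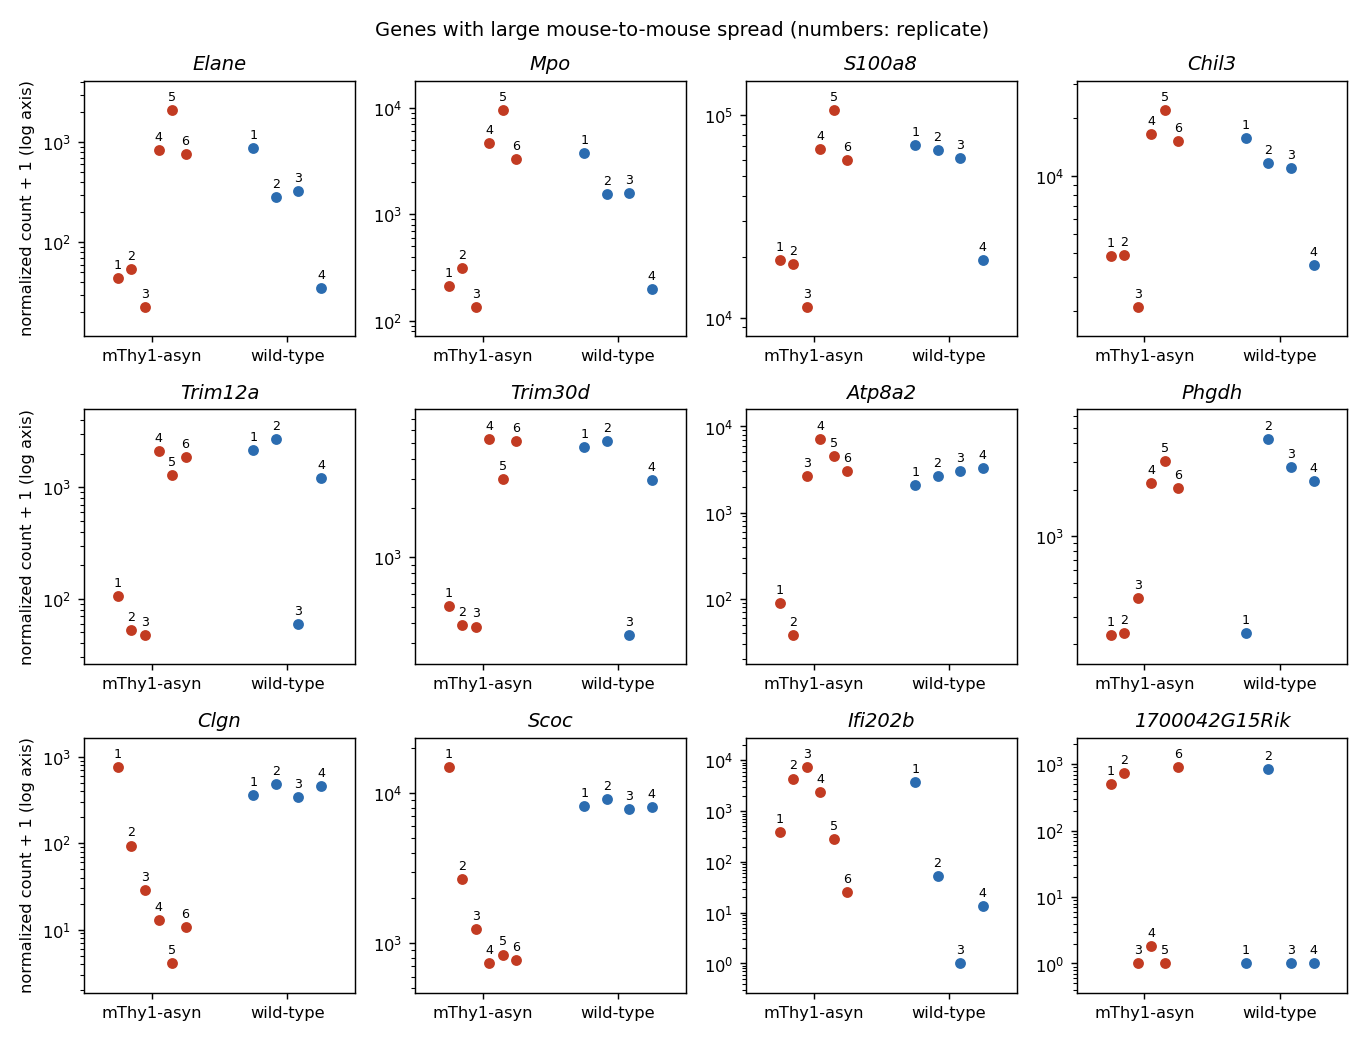
Normalized counts plus 1 (log axis) of 12 genes in each 7-month mouse, numbered by replicate, for α-synuclein mice in red and wild-type mice in blue. The top row shows neutrophil and monocyte genes, low in the same 4 mice, and the lower rows show genes in which other sets of mice stand apart.

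Other variable genes took 2 levels, and some with the same sets of mice were neighbours on a chromosome. Trim12a, a TRIM-family gene on chromosome 7 at 104299894 to 104315466 (GRCm38), had 104, 51, 46, 2094, 1285 and 1866 normalized counts in the α-synuclein mice and 2175, 2711, 58 and 1210 in the wild-type mice. Trim30b at 104355382, Trim30d at 104470014 and the GTPase-family gene Gm1966 at 106596743, on the same chromosome, were low in the same 4 mice, α-synuclein replicates 1, 2 and 3 and wild-type replicate 3. Trim30d lay between 335 and 506 in these and between 2942 and 5265 in the other 6. No other gene among the 69 had that low set. These genes have close relatives next to them, and reads shared between copies may have been split or dropped in the counting. Whether this bears on the 2 levels was not tested.

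On chromosome 3, the microglia marker Fcrls (87250758 to 87263738) had 21725, 21491 and 17800 normalized counts in α-synuclein replicates 1, 2 and 3 and between 52340 and 76894 in the other 7 mice, and its neighbour Fcrl1 (from 87376387) had 106 to 120 against 721 to 1304. Fcrls had the lowest fold change of the microglia identity markers (-0.73, SE 0.47) and was not called (adjusted p = 0.419). Phgdh, the first enzyme of serine synthesis, also on chromosome 3 (98313170 to 98339990), was low in these 3 mice and in wild-type replicate 1, at 227 to 396 against 2041 to 4262. Atp8a2, a phospholipid flippase gene on chromosome 14, had 87 and 37 in α-synuclein replicates 1 and 2 and between 2111 and 7170 in the other 8 mice.

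In 1 stretch of chromosome 8 a single α-synuclein mouse stood against its group. Scoc (83430084 to 83458391) had 14807 normalized counts in α-synuclein replicate 1, 2675, 1248, 731, 840 and 776 in replicates 2 to 6, and between 7829 and 9132 in the wild-type mice. Its neighbour Clgn (from 83389867), which encodes a testis-enriched ER chaperone, had 753 in replicate 1, 93, 28, 12, 3 and 10 in the others, and 340 to 477 in the wild-type mice. Cacna1a (84388440 to 84640246), a calcium channel gene, was the reverse, with 608 in replicate 1, 4246 to 5825 in the other 5 and 1849 to 2497 in the wild-type mice. None of the 3 was called (adjusted p = 0.169, 0.167 and 0.526). On chromosome 1 the interferon-inducible Ifi202b had 386, 4399, 7292, 2370, 281 and 24 against 3680, 53, 0 and 13, the second largest pooled SD of all. The largest belonged to 1700042G15Rik on chromosome 4, with 501, 751, 0, 1, 0 and 900 against 0, 837, 0 and 0.

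Called genes were spread over the genome, from 3.08% of tested genes on chromosome 19 to 6.96% on chromosome 10, beside 4.93% over all. The window of 5 Mb with most called genes was 105 to 110 Mb of chromosome 9, with 10 of 96 tested. It holds Dusp7 (106368632 to 106375724), Rpl29 (from 106429454), a ribosomal protein gene with 8352 to 12910 normalized counts against 4508 to 6006 (log2 fold change 1.07, SE 0.14, adjusted p = 0.00183), and Abhd14b (106447459 to 106452923), with 210 to 431 against 52 to 82. The next was 5 to 10 Mb of chromosome 17, with 9 of 32, among them Ccr6 (8236043 to 8257141), which had the largest decrease (-6.56). Higher there were Pde10a, a phosphodiesterase gene with 15 to 67 against 5 to 15 (2.12, SE 0.48, adjusted p = 0.0197), and the noncoding Gm16702 (1.52, SE 0.33, adjusted p = 0.0159) and 4930506C21Rik (1.49, SE 0.37, adjusted p = 0.0307). The calls of Pde10a, Gm16702 and 4930506C21Rik were lost in 2, 3 and 5 leave-one-out fits (up to 0.0654, 0.0581 and 0.0813).

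At 10 months, in other mice, 1045 of 13627 tested genes were called (7.67%). Of the 684 genes called at 7 months 676 were tested there, 307 (45.4%) had the same direction, 66 (9.76%) were called in the same direction and 33 (4.88%) in the opposite one. The 66 comprised 41 higher and 25 lower genes. Lymphocyte genes were among the lower ones, with 7 of 13 tested markers called at 10 months (median -1.01). Prf1 differed by -1.80 there (adjusted p = 0.00663) and Gzma by -1.48 (adjusted p = 0.0386). Ccrl2 differed by -0.62 (adjusted p = 0.00665). Among the higher ones were Thy1 (6.37, adjusted p = 3.44e-09), Abhd14b (1.81, adjusted p = 0.0225), Pdzrn4 (2.22, adjusted p = 0.00549), Abcc1 (1.97, adjusted p = 0.00862), a transporter gene that differed by 1.81 at 7 months (SE 0.32, adjusted p = 0.0158, lost in 3 leave-one-out fits), Nnt (1.18, adjusted p = 0.00629), Glb1 (0.42, adjusted p = 0.0309), Tnfrsf11a (0.38, adjusted p = 0.0393) and H2-Ob (0.64, adjusted p = 0.00765). The count of 66 fell to 29 without 7-month wild-type replicate 1 and to 38 without 10-month wild-type replicate 1, and lay between 41 and 43 without 7-month wild-type replicate 3, 10-month wild-type replicates 2 or 5 or 10-month α-synuclein replicate 5.

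**Figure D4:**
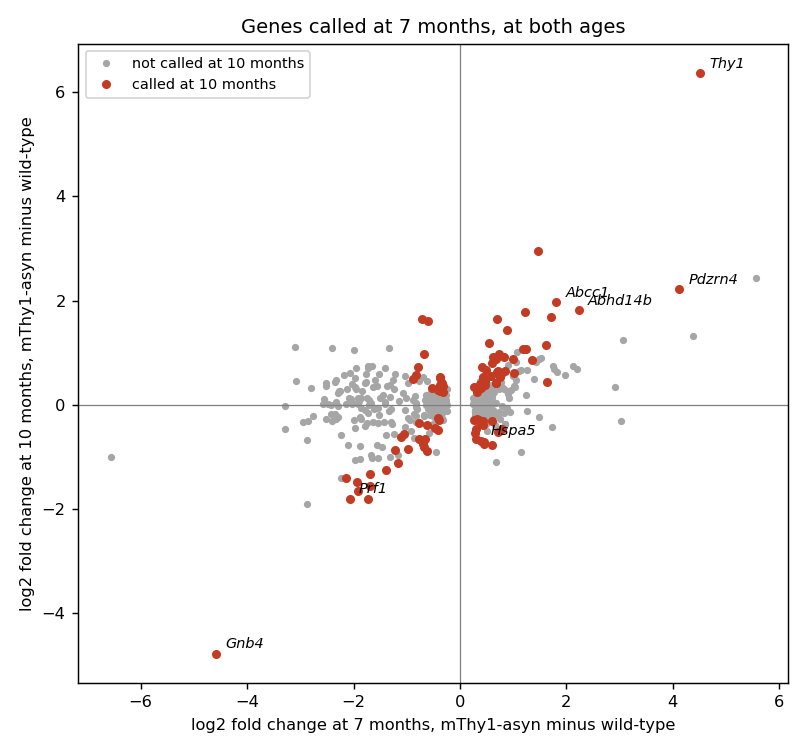
Log2 fold change at 10 months (vertical axis) against that at 7 months (horizontal axis) for the 676 genes called at 7 months and tested at both ages, with genes also called at 10 months in red. Thy1, Pdzrn4, Abcc1 and Abhd14b lie at the upper right and Prf1 and Gnb4 at the lower left, while Hspa5 lies right of 0 and below 0.

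The ER chaperones took the opposite direction at 10 months. There 12 of the 25 were called, all lower, and the list median was -0.27. Hspa5 averaged 42907 ± 5250 normalized counts (SD, n = 5) in α-synuclein and 70571 ± 18978 (SD, n = 5) in wild-type mice, a log2 fold change of -0.69 (adjusted p = 0.0209), and Creld2 1487 ± 213 against 2466 ± 468 (-0.72, adjusted p = 0.00548). In a limma fit of all 20 mice, added after the values were seen, the genotype effect differed between the ages in 926 of 14030 genes (6.60%) and in 15 of the 25 ER chaperones, each with the lower value at 10 months. The difference was -1.09 for Hspa5 (adjusted p = 0.00148), -1.18 for Creld2 (adjusted p = 0.00012), -0.81 for Pdia4 (adjusted p = 0.000508) and -0.96 for Pdia6 (adjusted p = 1.86e-05). The difference of P4ha1 was -1.21 (adjusted p = 1.86e-05). Entpd1 and Adora3 were not called at 10 months, and their differences between the ages were -0.72 (adjusted p = 0.000621) and -0.64 (adjusted p = 0.00558). Among astrocyte and neuron markers, 9 and 6 had a called difference, Sparcl1 for one by 1.97 (adjusted p = 0.00775), and their 10-month list medians were 0.29 and 0.12. In lymphocyte markers no difference was called.

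**Figure D5:**
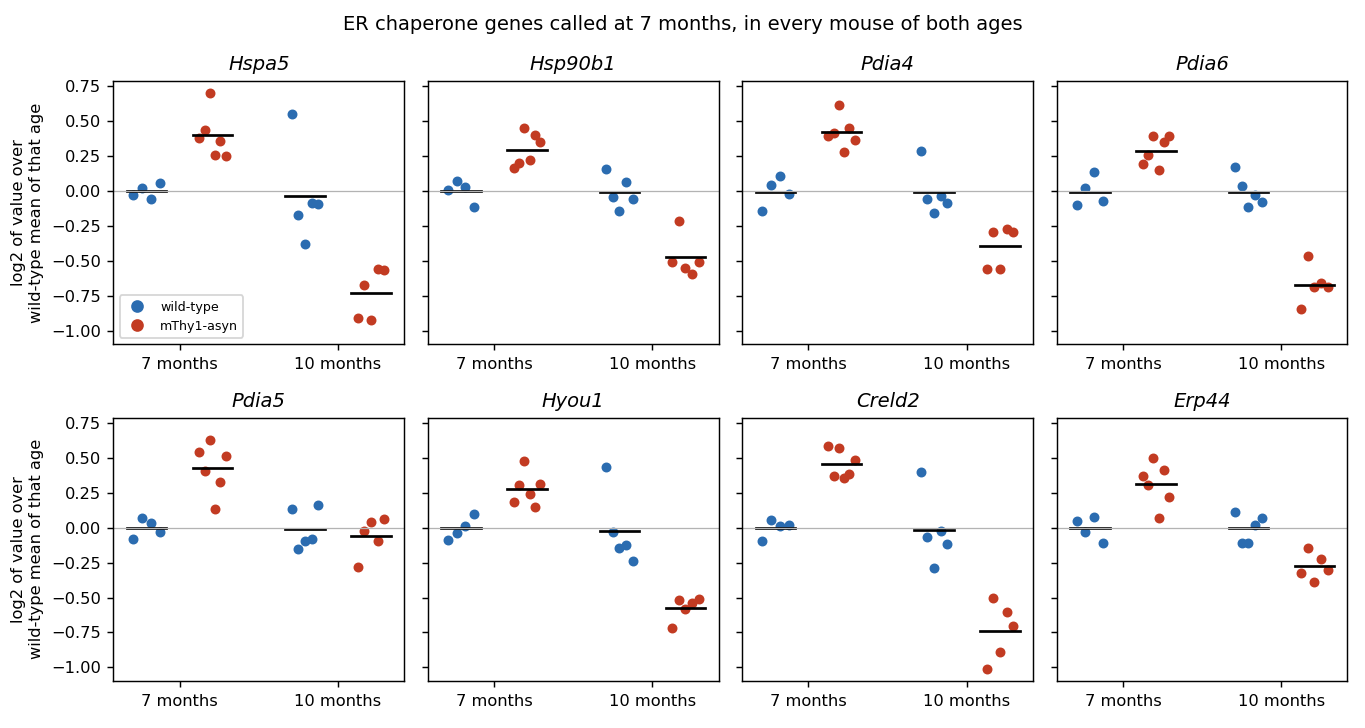
The 8 ER chaperone genes called at 7 months, as log2 of each mouse's normalized count over the wild-type mean of its age, for wild-type mice in blue and α-synuclein mice in red, with the mean of the log2 values as a black bar. The α-synuclein mice lie above the wild-type mean at 7 months, and at 10 months below it in 7 of the 8 genes, Pdia5 lying on both sides.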

How the data were processed

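RNA of bead-isolated microglia was sequenced per mouse. Per the labels and the study's methods, reads were trimmed with Trim Galore 0.6.7, aligned to mm10 with HISAT2 2.2.1 and counted per gene with featureCounts, and the authors divided the counts by DESeq2 1.44.0 size factors, each age apart, giving the deposited signal (normalized counts). Dividing by the value of 1 read returned whole reads for all values within 0.1. Samples were grouped by their labels, and the ages were not compared in level. limma 3.58.1 (R 4.3.3; trend, robust) was fitted to log2(value + 1) of genes reaching 10 in 4 or more mice (5 or more at 10 months), with Benjamini-Hochberg adjustment. edgeR 4.0.16 and DESeq2 1.42.0 on the recovered reads, other scalings, pseudocounts and filters, a replicate block and leaving out each mouse were the alternatives. Scripts were tested on simulated data.

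Members and gene lists were chosen with earlier results of these data known. Named genes were up to 12 called genes with the largest change in each direction whose genotypes do not overlap, up to 4 called members per list, the 12 genes of largest spread, up to 3 genes per mouse that stood apart, and up to 4 called genes in each of 3 windows of 5 Mb. Chosen after their values were seen were the fit of both ages, the 2-level rule, the ER stress element and the naming of Pdia6, Hsp90b1, Erp44, Hyou1, Ctsd, Trim30b, Trim30d, Gm1966, Fcrls and Fcrl1. A few genes were left out of the text. P-values weigh the difference between genotypes against the spread between mice of a genotype. Promoters came from RefSeq (GRCm38.p6) for 10409 tested genes.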

Additional observations from a re-analysis of the deposited data

Results flagged for a closer look

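In some named genes 1 mouse stood far from the others of its genotype. The measure was its gap to the nearest mouse over the range of the group (Dixon's ratio). Ratios are listed above a limit that chance alone exceeds in about 1 of 20 groups. Clgn, Scoc, Cacna1a, Ifi202b and 1700042G15Rik were named because a mouse stood apart or their spread was large, so their ratios are no separate evidence. Many named genes were examined in both genotypes, so some of the other ratios may pass the limit by chance. Among wild-type mice, replicate 4 was the highest for Abcc1 (0.940), Ano6 (0.895) and Trpm6 (1) and the lowest for S100a9 (0.914). Replicate 3 was the highest for Gas6 (0.890), Ifi30 (0.842) and Rpl29 (0.985) and the lowest for Thy1 (0.902). Replicate 2 was the highest for Fcrls (0.857), Fcrl1 (0.861) and 1700042G15Rik (1), and replicate 1 for Ifi202b (0.986). Among α-synuclein mice, replicate 1 was the highest for Clgn (0.880) and Scoc (0.862) and the lowest for Cacna1a (0.697). Replicate 4 was the highest for Slc4a4 (0.661) and the lowest for Slc29a3 (0.636).

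The genotype effect differed between the ages in 45 named genes by limma's test of the difference, beside 926 of all 14030 genes (6.60%). All of the 45 were genes called at 7 months, and 333 of the 684 genes called there had a called difference. The 7-month values also enter the difference, so the 45 are no separate evidence of a change with age. The difference is given here as the log2 fold change at 10 months minus that at 7 months. Of ER genes, it was -1.09 for Hspa5, -1.18 for Creld2, -0.81 for Pdia4, -0.48 for Pdia5, -0.96 for Pdia6, -0.77 for Hsp90b1, -0.59 for Erp44, -0.83 for Hyou1, -0.69 for Derl2, -0.61 for Herpud1, -0.41 for Sel1l and -1.21 for P4ha1. Of lysosomal, metabolic and matrix genes, it was -0.78 for Ctsc, -0.82 for Idua, -0.75 for Ifi30, -0.80 for Soat1, -1.04 for Cp, 0.65 for Pfkm and -0.34 for Adam17. Of receptors, channels and signaling genes, it was -0.72 for Entpd1, -0.64 for Adora3, -0.74 for P2rx4, -0.41 for Lyn, -0.49 for Blnk, -0.54 for Fcgr1, -0.42 for Kcnk6, -0.50 for Kcnj2, -3.06 for Trpm6, -0.64 for C3ar1, -1.24 for Dusp6, -0.96 for Myc and -1.0 for the interferon-induced Ifit3. Of neuron and astrocyte genes, it was 2.25 for Nefm, 2.17 for Nefl, 2.65 for Syt1, 1.86 for Thy1, 1.97 for Sparcl1, 2.04 for Slc4a4, 1.68 for S100b and 1.53 for Aldoc. It was 1.70 for Park2, 0.71 for Pink1, 2.62 for Scrt1, 5.57 for Ccr6 and -3.33 for Rhbdl3. Age and the separate preparation and normalization of each age cannot be told apart in these values.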

How the results depend on the processing

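The counts of 309 higher, 375 lower and 66 genes called at both ages became 564, 594 and 138 with DESeq2 on the recovered reads and 159, 249 and 29 with limma without a trend or robust fit. Leaving out 1 mouse gave 120 to 400 higher, 162 to 458 lower and 29 to 83 shared genes. With TMM scaling, edgeR, pseudocounts of 0.5 and 5, no filter and a minimum of 50 they stayed within 1.5 times. With the replicate number as a block they were 165, 249 and 44. Same-numbered mice did not deviate together (correlations -0.26, -0.09, -0.02 and -0.22, beside -0.35 to 0.36 in the other pairs). So few pairs cannot show whether a number marks a shared litter or day, and the labels do not say. Of 1649 values of 87 genes under these alternatives, none changed sign and 226 were no longer called, and 43 of the 86 called genes lost their call when some mouse was left out. Of 1045 list medians 1013 moved by less than the spread between mice and 32 by more. The cause of these shifts was not tested. With 4 wild-type mice, differences near the spread between mice were not detectable.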
